A study of Mus musculus with 11 samples.

Results

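The transcripts of 9 fatty acid desaturases and elongases were examined in the livers of mice treated with A2M and of mice given PBS. The genes were taken by name from the deposited tables: Fads1, Fads2, Fads3, Fads6 and Scd2 among the desaturases, and Elovl1, Elovl2, Elovl3 and Elovl5 among the elongases. They are 9 of the 24063 genes listed, and all 9 were among the 12581 genes that passed the filter on low counts. The livers came from 6 mice treated with A2M (replicates 1 to 6) and, as controls, from 5 mice treated with PBS (replicates 1 to 5). All were Cd1 nu/nu mice, which lack a thymus. According to the study's methods they were young males that carried human tumour cells under the skin, and both groups were therefore tumour-bearing. A2M is alpha2-macroglobulin, a plasma protease inhibitor that hepatocytes take up through the receptor LRP1. The study injected its activated human form into the peritoneal cavity again and again. Replicate numbers here follow the order of deposit and pair no mice. The labels number the livers in an unbroken run apart from A2M replicate 6, whose number lies below that run. Within that run all PBS livers come first and the A2M livers follow. Except for A2M replicate 6, an effect of number order therefore cannot be told apart from one of treatment. The labels name no tumour line, pooling, time of day or batch for these livers.

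Fatty acids from the diet or from synthesis are remodelled in the endoplasmic reticulum by enzymes that insert double bonds and by enzymes that lengthen the chain. Fads2 and Fads1 act in turn, with Elovl5 and Elovl2 between and after them, to convert the essential plant fatty acids linoleic and alpha-linolenic acid into arachidonic, eicosapentaenoic and docosahexaenoic acid, and the liver is a main site of this conversion. Scd enzymes make monounsaturated fatty acids, while Elovl1 and Elovl3 lengthen saturated and monounsaturated chains, with Elovl1 supplying very long chains for sphingolipids. In mouse liver Elovl3 is known for a strong daily rhythm and for higher expression in males.

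Counted reads per library ran from 23545121 to 37357134 in A2M livers and from 31513210 to 46381692 in PBS livers. Across all genes, edgeR's quasi-likelihood test called 10 genes higher and 17 lower at an adjusted p under 0.01, and the median log2 fold change was -0.01. Summed hepatocyte markers reached 56183 to 68630 RPKM in A2M livers and 49257 to 75016 RPKM in PBS livers, and hepatocyte transcripts were thus abundant in every library. RPKM are reads scaled to the length of the exons and to the library total. PBS replicate 2 stood apart. The 8 adipocyte markers summed to 3.45 to 6.59 RPKM in A2M livers, and to 1066 RPKM in this liver with a PBS median of 5.02 RPKM. The 8 adrenal markers summed to 2.67 to 12.8 RPKM in A2M livers, and to 444 RPKM in this liver with a PBS median of 6.46 RPKM. A2M replicate 1 had the highest sum of Kupffer cell markers, at 311 RPKM, with a range of 59.9 to 311 RPKM in A2M livers and 44.9 to 127.2 RPKM in PBS livers. PBS replicate 1 had the highest sum of cholangiocyte markers, at 158 RPKM. In a piece of tissue, fewer cells of a type and less RNA per cell cannot be told apart.

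None of the 9 genes was called by edgeR's quasi-likelihood test at this threshold, where 0.215% of all genes were. At an unadjusted p under 0.05 there were 4 of the 9 (Fads1, Fads2, Fads3 and Elovl3), or 44.4%, against 14.7% of all genes tested. The 9 genes were chosen with earlier results of these data known. The shares in this paragraph therefore describe the list and do not test it. At an adjusted p under 0.05 there were 2, Fads2 with a positive and Fads3 with a negative fold change, where 1.22% of all genes passed. DESeq2 at an adjusted p under 0.01 called 3 of the 9, with Fads1 and Fads2 higher and Fads3 lower, against 2.28% of all genes. A rule like the one the study used asks for calls by DESeq2 and by edgeR's exact test at once, and it called Fads2 and Fads3 and 1.52% of all genes. This rule was applied here to all 11 livers, while the liver means that the study printed match fewer livers. Over the 9 genes the median log2 fold change was 0.09, with 5 positive and 4 negative values, where 48.9% of all genes were positive. In 2 of the 9, Fads1 and Fads2, every A2M liver lay above every PBS liver, which held for 0.946% of all genes, and 2.27% of genes were without overlap in either direction.

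**Figure D1:**
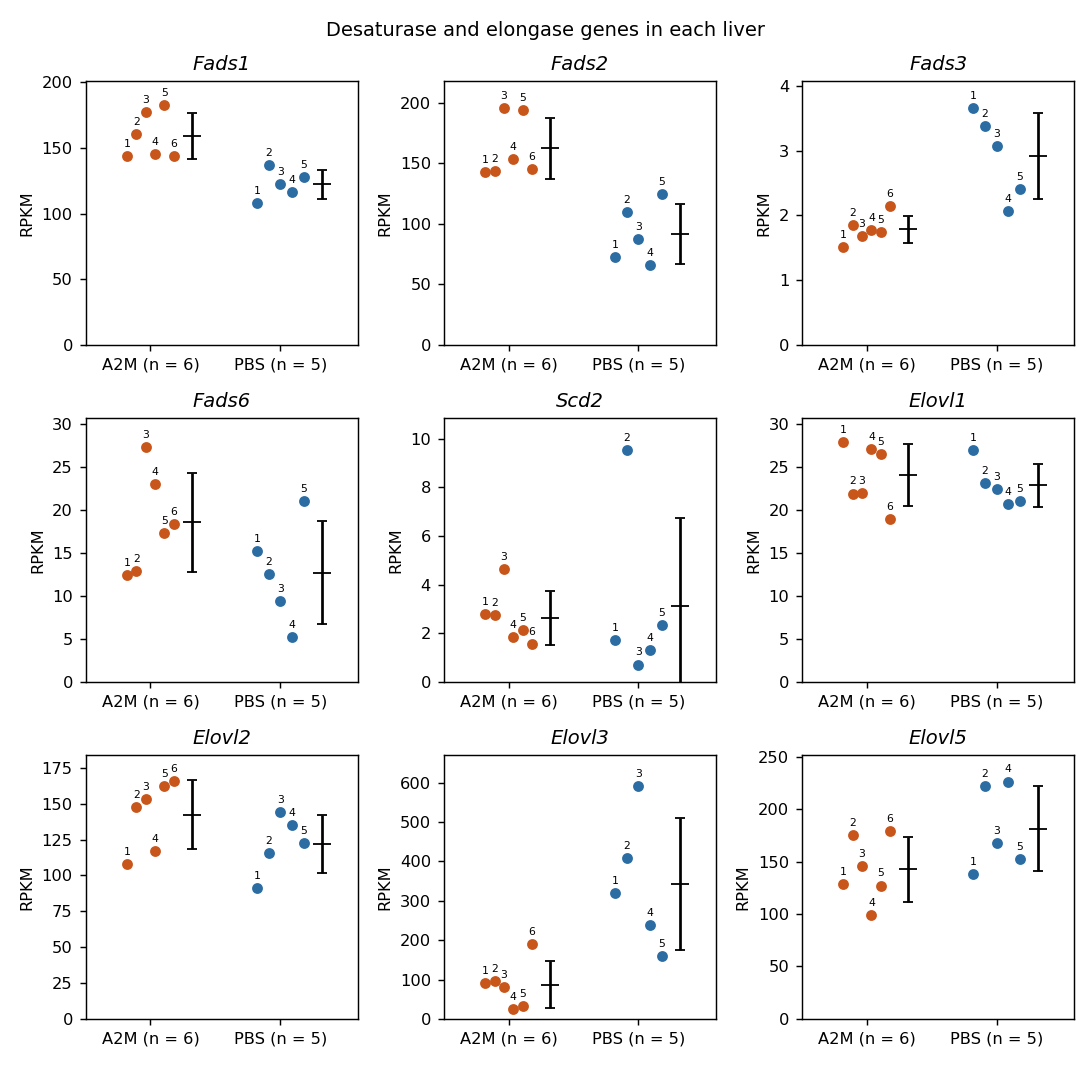
Deposited RPKM of the 9 genes in each liver, A2M on the left and PBS on the right of each panel, on linear axes that start at 0. Points are livers with their replicate number and bars give the mean ± SD (n = 6 A2M and 5 PBS livers), cut off at 0 for Scd2. The points of the groups do not overlap for Fads1 and Fads2, a single A2M liver reaches into the PBS range for Fads3 and for Elovl3, and PBS replicate 2 lies far above all other livers for Scd2.

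Fads2, the desaturase that starts the conversion of both essential fatty acids, had the smallest p of the 9 genes. It ranged from 143 to 195 RPKM with a median of 149 RPKM in A2M livers, against 72.3, 109, 87.4, 65.7 and 124.3 RPKM in PBS livers 1 to 5. The A2M livers fell into 4 livers close together at the low end and replicates 3 and 5 above them, while the PBS livers were spread more widely, with replicate 5 nearest to the A2M range. Its mean was 162 ± 25.3 RPKM in A2M livers and 91.8 ± 24.7 RPKM in PBS livers (SD, n = 6 and 5). Fads2 had a log2 fold change of 0.84 with a standard error of 0.16, or 1.79-fold, with an adjusted p of 0.0274 in edgeR's quasi-likelihood test and of 6.35e-05 in DESeq2. This placed Fads2 at rank 65 of the 12581 genes by p, outside the 27 that were called.

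Fads1 inserts the last double bond of arachidonic and eicosapentaenoic acid. It was measured at 144 to 182 RPKM with a median of 153 RPKM in A2M livers, and at 108, 137, 122, 116 and 128.015 RPKM in PBS livers 1 to 5. The groups did not overlap, although the lowest A2M livers were close to the highest PBS liver, replicate 2. The mean was 159 ± 17.6 RPKM in A2M livers and 122 ± 10.9 RPKM in PBS livers (SD, n = 6 and 5). Its log2 fold change of 0.39, with a standard error of 0.10 or 1.31-fold, had an adjusted p of 0.0873 in edgeR's quasi-likelihood test and of 0.0048 in DESeq2. Fads1 was among the steadier genes of the liver, since its coefficient of variation was 11.0% in A2M and 8.93% in PBS livers, where the median of all genes tested was 18.1% and 17.3%.

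Fads3, whose product is known as a desaturase of sphingoid bases in ceramides, was far less abundant than its neighbours on the chromosome. Between 1.51 and 2.14 RPKM were found in A2M livers, with a median of 1.76 RPKM, against 3.67, 3.39, 3.07, 2.07 and 2.40 RPKM in PBS livers 1 to 5. Of the A2M livers 5 lay below every PBS liver, and A2M replicate 6 lay just above PBS replicate 4. These levels rest on 142 to 211 reads per library in A2M livers and 283 to 431 in PBS livers. The log2 fold change was -0.68 with a standard error of 0.14, or 1.61-fold lower in A2M livers, with an adjusted p of 0.0392 in edgeR's quasi-likelihood test and of 0.0012 in DESeq2.

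The genes Fads1, Fads2 and Fads3 are neighbours on mouse chromosome 19. In GENCODE on GRCm38 (mm10), Fads3 spans chr19:10041569-10060110 on the plus strand, Fads2 chr19:10062765-10101746 on the minus strand and Fads1 chr19:10182888-10196877 on the plus strand. Fads3 and Fads2 thus meet at their 3′ ends across a gap of 2654 bases, while Fads2 and Fads1 start 81141 bases apart and are read away from each other. The genes on either side had log2 fold changes of 0.38 for Rab3il1 (adjusted p = 0.587), -0.10 for Fen1 (adjusted p = 0.822), -0.02 for Tmem258 (adjusted p = 0.971) and -0.19 for Myrf (adjusted p = 0.517), all from edgeR's quasi-likelihood test. No exon of the 3 Fads genes overlaps another annotated gene. Their transcripts also hold nearly no common sequence, with only 5 stretches of 50 bases shared between Fads2 and Fads3 and none between Fads1 and any other gene, so few reads of this length could be counted for the wrong member.

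The bases before the start of Fads3 are shown because the fold change of this gene had the opposite sign to those of Fads1 and Fads2. RefSeq on GRCm38.p6 gives the 250 bases before the start site, chr19:10041298-10041547 on the plus strand, with CCAAT boxes in capitals.

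Fads3: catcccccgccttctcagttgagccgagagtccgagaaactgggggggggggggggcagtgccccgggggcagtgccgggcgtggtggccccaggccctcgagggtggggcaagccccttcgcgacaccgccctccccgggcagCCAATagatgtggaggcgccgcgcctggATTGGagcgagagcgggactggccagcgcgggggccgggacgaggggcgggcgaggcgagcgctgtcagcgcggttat

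The CCAAT box, read as CCAAT on either strand, begins at positions -106 and -78 from the start, and the match at -78 reads ATTGG on the strand shown. Of 32851 mouse promoter windows of the same kind, 33.8% hold it at least once and 10.1% at least 2 times. The GC box GGGCGG, found in 32.7% of windows, begins at -123 and -34 of Fads3. The E-box CACGTG, in 6.02% of windows, and the sterol response element TCACNCCAC, in 1.05%, were not among these letters. Windows were at hand for 6 of the 9 genes. Of these, Elovl5 has an E-box at -161 and CCAAT boxes at -71 and -17, Fads2 has a GC box at -186 and no CCAAT box, and the sterol response element has no match in any. All motifs were read on both strands, none of them contains another, and a match is a description of the letters.

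Within each liver the balance of the 3 Fads transcripts differed between the groups. The Fads2 level was 0.895 to 1.10 times that of Fads1 in A2M livers, against 0.668, 0.799, 0.715, 0.566 and 0.971 times in PBS livers 1 to 5. Only A2M replicate 2 fell below PBS replicate 5, and the other 5 A2M livers lay above all PBS livers. Fads3 amounted to 0.863 to 1.47% of Fads2 in A2M livers and to 5.07, 3.10, 3.51, 3.15 and 1.93% in PBS livers 1 to 5, without overlap. These ratios were not tested. The deposited RPKM of Fads2 were computed over 1.508 kilobases, whereas the GENCODE exons of the gene cover 3295 bases, so that the ratio of Fads2 to Fads1 has no meaning as an absolute number and can be compared between livers only.

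Fads1 and Fads2 also varied together from liver to liver. Across the 11 livers the Pearson correlation of log2(RPM + 1) was 0.93 and Spearman's rho 0.93 (permutation p = 6.0e-05 and 0.00023, and 0.0003 and 0.00115 after adjustment over the 5 gene pairs computed). Part of this is the difference between the groups, which the permutations over all 11 livers did not hold apart. With each group centred on its mean r was 0.79, a value that was not tested. Within the 6 A2M livers r was 0.89 (exact permutation p = 0.0778, adjusted p = 0.194) and rho was 0.66. Within the 5 PBS livers r was 0.82, and without the 2 livers farthest from the median of Fads1 it was 0.90. For Fads1 and Fads3 r was -0.70 (permutation p = 0.0183, adjusted p = 0.0267; rho -0.77, p = 0.00758, adjusted p = 0.0189), and for Fads2 and Fads3 it was -0.68 (permutation p = 0.0214, adjusted p = 0.0267; rho -0.69, p = 0.0232, adjusted p = 0.029). Both relations were those of the groups. Centred on the group means r was -0.08 for Fads1 and Fads3 and 0.01 for Fads2 and Fads3. Within the A2M livers they came to -0.16 (exact permutation p = 0.775) and -0.19 (exact permutation p = 0.675, adjusted p = 0.775 for each), within the PBS livers to -0.04 and 0.08, and without the 2 farthest livers to -0.54 and -0.82. Leaving out PBS replicate 1 gave -0.57 for each pair (permutation test, adjusted p = 0.106 for each).

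**Figure D2:**
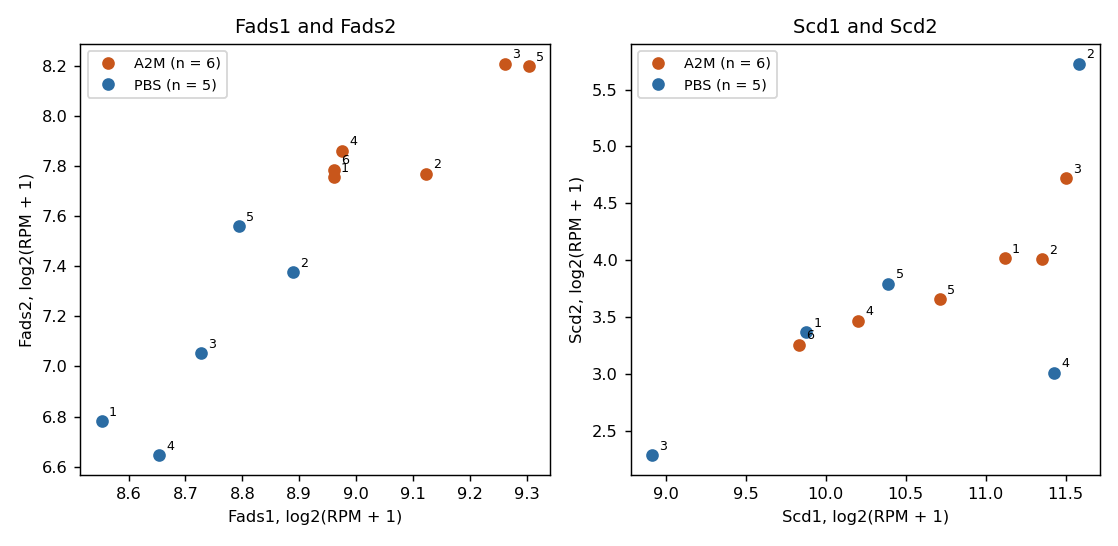
Levels of gene pairs in each liver as log2(RPM + 1), with Fads1 against Fads2 in the left panel and Scd1 against Scd2 in the right. Points are livers with their replicate number, A2M in orange and PBS in blue (n = 6 and 5). For Fads1 and Fads2, r was 0.89 within the A2M livers (exact permutation p = 0.0778, rho 0.66) and 0.82 within the PBS livers. In the right panel PBS replicate 2 is highest on both axes and PBS replicate 4 lies below the other livers of its Scd1 level.

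Fads6, a member of the desaturase family whose reaction is not well known, ranged from 12.4 to 27.3 RPKM with a median of 17.8 RPKM in A2M livers, and was at 15.3, 12.5, 9.35, 5.20 and 21.1 RPKM in PBS livers 1 to 5. The groups overlapped over much of their range, and only A2M replicates 3 and 4 lay above every PBS liver. In Fads6 the log2 fold change was 0.58 with a standard error of 0.29 (adjusted p = 0.391, edgeR's quasi-likelihood test). Its levels varied more than most, with a coefficient of variation of 31.1% in A2M and 47.3% in PBS livers.

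Scd2 is the isoform of stearoyl-CoA desaturase best known from brain and from the newborn, while Scd1 is the main one of the adult mouse liver. Scd2 was found at 1.57 to 4.65 RPKM with a median of 2.45 RPKM in A2M livers, and at 1.71, 9.54, 0.71, 1.29 and 2.36 RPKM in PBS livers 1 to 5. PBS replicate 2, the liver with the high adipocyte and adrenal markers, was above every other liver, and the other 4 PBS livers lay within or below the A2M range. With all livers the log2 fold change was -0.18 with a standard error of 0.52 (adjusted p = 0.920, edgeR's quasi-likelihood test). Without PBS replicate 2 it turned to 0.78 with a standard error of 0.33 (adjusted p = 0.348), and the part of the foreign markers in the high value was not tested. Scd2 made up 0.512 to 0.833% of the Scd1 level in A2M livers and 0.878, 1.504, 0.714, 0.227 and 0.849% in PBS livers 1 to 5. In transcripts, 3.97% of its stretches of 50 bases occur also in other genes, mainly Scd1, Scd3 and Scd4, and Scd1 is far more abundant. Scd2 had 258 to 946 reads per library in A2M livers and 122 to 2025 in PBS livers, while Scd1 had 27497 to 108374 in A2M livers and 15155 to 127697 in PBS livers. How reads from shared stretches were assigned is not given in the sources used here, so the share of Scd2 reads that stem from Scd1 is not known.

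Under the same limit, since reads of Scd1 counted for Scd2 would tie the genes together, Scd2 and Scd1 were correlated across the livers, with r of 0.74 (permutation p = 0.0087, adjusted p = 0.0217) and rho of 0.73 (p = 0.0144, adjusted p = 0.0241). It was 0.73 after centring on the group means, 0.91 within the 6 A2M livers (exact permutation p = 0.00556, adjusted p = 0.0278) and 0.69 within the 5 PBS livers. Without the 2 livers farthest from the median of Scd1, PBS replicate 3 and A2M replicate 6, r was 0.56, and without PBS replicate 3 alone it was 0.60 (permutation test, adjusted p = 0.065). Scd1 itself had a log2 fold change of 0.18 with a standard error of 0.43.

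Among the elongases Elovl3 differed most between the groups. It was measured at 91.4, 97.4, 81.4, 24.4, 31.9 and 191 RPKM in A2M livers 1 to 6, against 320, 408, 592, 238 and 159 RPKM in PBS livers 1 to 5. A2M replicate 6 lay above PBS replicate 5, and the other 5 A2M livers were below every PBS liver. The mean was 86.2 ± 59.8 RPKM in A2M livers and 343 ± 167 RPKM in PBS livers (SD, n = 6 and 5). The log2 fold change of -1.97 was the largest in size among the 9 genes, or 3.93-fold lower in A2M livers, but its standard error of 0.48 was large too, and the adjusted p was 0.0666 in edgeR's quasi-likelihood test and 0.0119 in DESeq2. Without A2M replicate 6, the liver numbered apart from the others, the log2 fold change was -2.38 with an adjusted p of 0.0179, and without PBS replicate 2 it was -1.95 with an adjusted p of 0.121. Livers of the same group differed more in Elovl3 than in most genes, as its coefficient of variation of 69.3% in A2M livers was at the percentile 97.0 of all genes tested.

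Genes of the body clock differed between the same groups. The study had already named several of them as changed in livers of A2M-treated mice. Among these were Usp2, Wee1, Dbp, Tef, Ciart, Per2, Per3 and Arntl. The liver means that the study printed for Usp2, Wee1 and Arntl equal those without PBS replicate 2, A2M replicate 1 and A2M replicate 6. They thus rest on fewer livers than the values here. The lists used here were chosen with earlier results of these data known. The counts and the score below are thus a description and no independent evidence. Of 14 clock genes that peak towards dusk, 13 had a positive fold change, where 48.9% of all genes did, and 1, Wee1, rose in edgeR's quasi-likelihood test (log2 fold change 2.96, adjusted p = 0.00284), with a list median of 1.49 on the log2 scale. DESeq2 called 9 of them higher and so did the rule of both tools, against 0.215% of all genes called by edgeR's quasi-likelihood test in either direction, 2.28% by DESeq2 and 1.52% by both tools. Of 5 clock genes that peak towards dawn, 4 had a negative fold change and 1, Npas2, fell (-4.47, adjusted p = 0.00533), with a median of -1.76, while DESeq2 and the rule of both tools each called 3 lower (Arntl, Npas2 and Nfil3), beside the same shares of all genes. The median of all genes tested was -0.01. A score of dusk minus dawn genes lay between 0.33 and 1.58 in A2M livers, with the lowest value in replicate 6, and between -2.32 and -0.19 in PBS livers, with the highest values in replicates 4 and 5. The A2M liver with the lowest score was thus the one with the most Elovl3, and the PBS livers with the highest scores were those with the least. Within the PBS livers the order was not strict. Scores were -2.22, -1.14, -2.32, -0.19 and -0.23 in PBS replicates 1 to 5, with Elovl3 at 320, 408, 592, 238 and 159 RPKM. Among 10 genes with higher expression in male liver, Elovl3 included, 8 had a negative fold change (median -0.30) and none passed edgeR's quasi-likelihood test, with 4 lower at an unadjusted p under 0.05 and 1, Hsd3b5, called lower by DESeq2 and by the rule of both tools, where the shares of all genes in either direction were 14.7%, 2.28% and 1.52%. Elovl3 was itself 1 of these 4. The part of clock phase and of male-biased expression in the Elovl3 values was not tested.

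**Figure D3:**
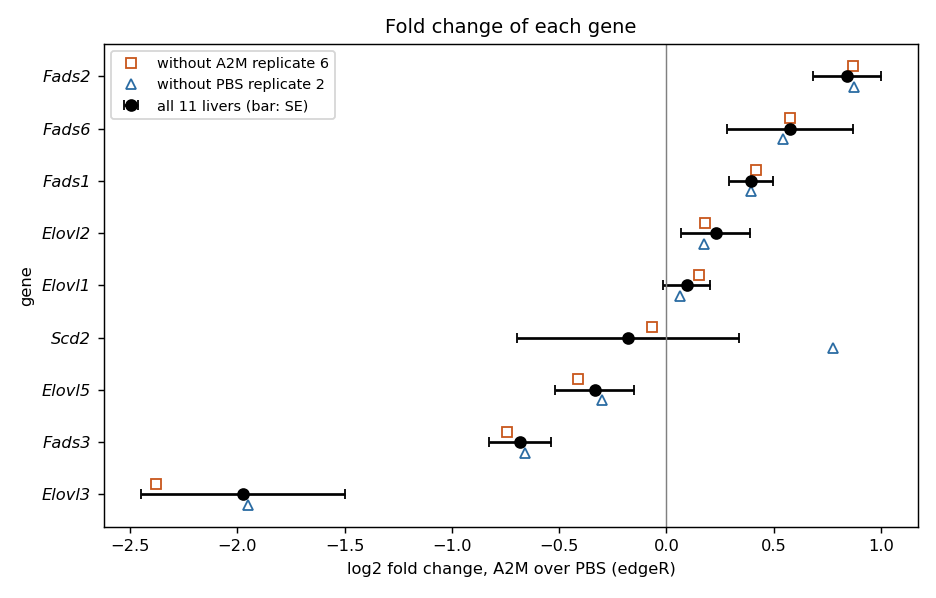
Log2 fold change of each gene, A2M over PBS, from edgeR, with black points for all 11 livers and bars of 1 standard error. Open squares leave out A2M replicate 6 and open triangles leave out PBS replicate 2. Fads2 is highest at 0.84 and Elovl3 lowest at -1.97, and the triangle of Scd2 lies at 0.78 on the other side of 0 from its black point at -0.18.

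Elovl5 and Elovl2, which lengthen polyunsaturated chains before and after the step of Fads1, showed smaller differences. Elovl5 ranged from 98.7 to 179 RPKM with a median of 137 RPKM in A2M livers, and was at 139, 222, 168, 226 and 152 RPKM in PBS livers 1 to 5. Of the A2M livers 3 lay below every PBS liver and the rest within the PBS range. The log2 fold change was -0.33 with a standard error of 0.18 (adjusted p = 0.439, edgeR's quasi-likelihood test). Elovl2 ranged from 108 to 166 RPKM with a median of 150.3 RPKM in A2M livers, and was at 91.4, 116, 144, 135 and 122 RPKM in PBS livers 1 to 5. Here 4 of the A2M livers lay above every PBS liver, and replicates 1 and 4 within the PBS range. The log2 fold change was 0.23 with a standard error of 0.16 (adjusted p = 0.565, edgeR's quasi-likelihood test). Across the 11 livers Elovl2 and Elovl5 had an r of 0.22 (permutation p = 0.516, adjusted p = 0.516) and a rho of 0.19 (p = 0.58, adjusted p = 0.58), and r was 0.57 after centring on the group means, 0.64 within the A2M livers (exact permutation p = 0.236, adjusted p = 0.394), 0.48 within the PBS livers and 0.01 without the 2 farthest livers.

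Elovl1 was the gene nearest to no difference, at 18.97 to 27.9 RPKM with a median of 24.3 RPKM in A2M livers and at 26.9, 23.1, 22.4, 20.6 and 21.0 RPKM in PBS livers 1 to 5. The A2M range enclosed all PBS livers. For Elovl1 the log2 fold change was 0.09 with a standard error of 0.11 (adjusted p = 0.758, edgeR's quasi-likelihood test). Exons of Elovl1 and of Cdc20 share 53 bases on opposite strands, which these libraries cannot tell apart, and Elovl3 shares 10 bases with Pitx3 in the same way.

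The shares of the 4 elongases within each liver differed with Elovl3. Elovl3 held 25.7, 22.0, 20.2, 9.14, 9.18 and 34.4% of their summed RPKM in A2M livers 1 to 6, against 55.4, 53.1, 63.9, 38.4 and 34.9% in PBS livers 1 to 5. The groups were separate by a narrow margin between A2M replicate 6 and PBS replicate 5. Elovl2 held 29.9 to 46.7% in A2M livers and 15.1 to 27.0% in PBS livers. The summed level was 267 to 554 RPKM in A2M livers and 454 to 926 RPKM in PBS livers, with A2M replicate 6 inside the PBS range. Elovl2 came to 0.841 to 1.28 times the level of Elovl5 in A2M livers and to 0.522 to 0.858 times in PBS livers. These shares were not tested.

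**Figure D4:**
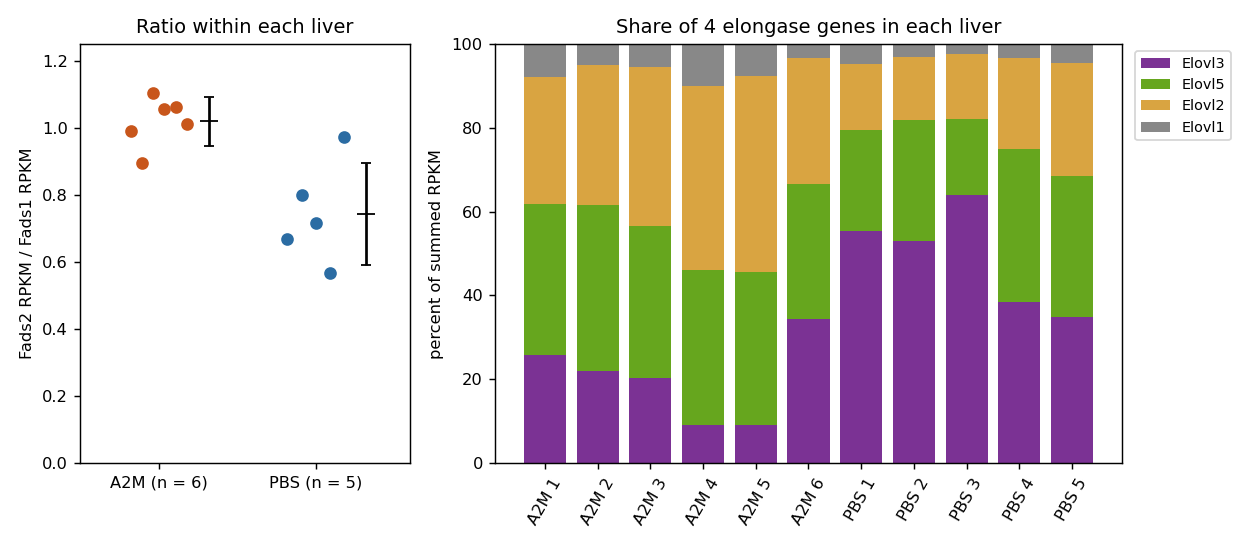
Left panel, Fads2 RPKM divided by Fads1 RPKM in each liver with mean ± SD (n = 6 A2M and 5 PBS livers). Right panel, percent of the summed RPKM of Elovl3, Elovl5, Elovl2 and Elovl1 in each liver as stacked bars, A2M livers first. The ratio is 0.895 to 1.10 in A2M and 0.566 to 0.971 in PBS livers, and the Elovl3 share is 9.14 to 34.4% in A2M and 34.9 to 63.9% in PBS livers.

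Ordered by mean RPKM, a level per length of transcript, the 9 genes ran Fads2, Fads1, Elovl5, Elovl2, Elovl3, Elovl1, Fads6, Scd2 and Fads3 in A2M livers. In PBS livers the order was Elovl3, Elovl5, Fads1, Elovl2, Fads2, Elovl1, Fads6, Scd2 and Fads3. Thus Elovl3 led in PBS livers and was at rank 5 in A2M livers, and Fads2 led in A2M livers and was at rank 5 in PBS livers. In A2M livers the only neighbours in this order whose ranges were apart were Fads6 (12.4 to 27.3 RPKM) and Scd2 (1.57 to 4.65 RPKM). In PBS livers the ranges were separate between Elovl5 and Fads1 and between Fads2 and Elovl1. The order of Fads2 and of Fads6 depends on the lengths the authors used, since 1.239 kilobases were taken for Fads6 where GENCODE gives 6653 exon bases.

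The genes with the pattern most like that of Fads2 over the 11 livers were St13 (r = 0.94), Fads1, Aldh4a1, Azin1 and Nadk (r = 0.93 each). The genes most like Fads3 were Tspan14 (r = 0.96), Smarcd1, Dnmt3b and Mreg (r = 0.95 each) and Npas2 (r = 0.94). Of the 5 genes beside Fads2, 4 had every A2M liver above every PBS liver, and the 5 beside Fads3 had every A2M liver below, so that these correlations share the difference between the groups. Of all genes tested 0.946% had every A2M liver above, and 2.27% were without overlap in either direction. The genes were picked by their correlation with Fads2 and Fads3, which differ between the groups, so these counts are no independent result. Elovl3 had an r of 0.80 with Fads3, at rank 275 of all genes tested.

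The genes that work with these enzymes were read from 9 pathway lists, with 72 genes tested that are not among the 9. None passed the threshold in edgeR's quasi-likelihood test. At an unadjusted p under 0.05 there were 17 of the 72, or 23.6%, against 14.7% of all genes. DESeq2 called 1 higher, Slc27a5, and 1 lower, Insig2, and the rule of both tools called none. The shares of all genes in either direction were 2.28% and 1.52%. The median log2 fold change was 0.07, with 46 positive and 26 negative values, where 48.9% of all genes were positive. The values below are log2 fold changes of the 2 genes of each list with the smallest p, with the adjusted p of edgeR's quasi-likelihood test.

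Of the other desaturases and elongases 5 of 8 were tested and all 5 had positive fold changes. Elovl6, which lengthens palmitic acid, had 0.48 (adjusted p = 0.333) and Scd4 0.77 (adjusted p = 0.412). Elovl4 had no read in any A2M liver and 5 reads in PBS replicate 2 only. In the list of partners of the elongation cycle, with 4 of 5 positive, the dehydratase Ptplad1 (now Hacd3) had 0.17 (adjusted p = 0.339) and Ptplb (now Hacd2) -0.16 (adjusted p = 0.587). Of the cytochrome b5 genes and their reductases, which hand electrons to the desaturases, 3 of 5 were positive, with 0.17 for Cyb5r3 (adjusted p = 0.519) and -0.19 for Cyb5r1 (adjusted p = 0.539).

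Of 9 genes of fatty acid synthesis 5 were positive. Thrsp, which promotes lipogenesis, had 1.54 (adjusted p = 0.164). Pnpla3, a lipase of lipid droplets, had -3.61 (adjusted p = 0.145), and its PBS mean of 0.837 ± 1.69 RPKM rests on PBS replicate 2 at 3.85 RPKM, while no other liver was above 0.149 RPKM. Of 7 acyl-CoA synthetases 4 were positive, among them the bile acid and very long chain enzyme Slc27a5 with 0.30 (adjusted p = 0.131) and Acsl4, which prefers arachidonic acid, with 0.67 (adjusted p = 0.134). Of 10 genes of peroxisomal chain shortening, the last stage on the way to docosahexaenoic acid, 7 were positive. The thiolases Acaa1a and Acaa1b, close copies whose reads may be mixed, had 0.45 (adjusted p = 0.116) and 0.59 (adjusted p = 0.128).

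Of 10 tested genes that place polyunsaturated chains into phospholipids or release them, 7 were positive. Agpat2 had -0.43 (adjusted p = 0.169) and the phospholipase Pla2g6 0.33 (adjusted p = 0.172). Of 17 regulators of lipogenesis 10 were positive. Insig2, which holds the SREBP precursor in the endoplasmic reticulum, had -0.98 (adjusted p = 0.0884, and under 0.01 in DESeq2), and Mlxipl, the glucose-responsive factor ChREBP, had -0.42 (adjusted p = 0.145). Srebf1, the SREBP gene known to drive Fads1 and Fads2, was at 52.5 ± 24.8 RPKM in A2M livers and 37.1 ± 7.56 RPKM in PBS livers (SD, n = 6 and 5), with a log2 fold change of 0.52 (adjusted p = 0.457); it was picked for this role and not by its p. Of the 4 ceramide synthases tested 1 was positive, with 1.34 for Cers6 (adjusted p = 0.194) and -0.75 for Cers5 (adjusted p = 0.397), and Cers1 had no read in any liver.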

How the data were processed

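The authors made libraries from total liver RNA by TruSeq RNA v2 chemistry, without strand information, and read single ends. The submitters' processing notes name bcl2fastq 1.8.4 for extraction, TopHat2 for mapping on mm10 and featureCounts for counting, and the methods name RefSeq as the annotation. The read length is not given in the sources used here. The authors deposited read counts, not normalized, RPM, which equal the counts scaled to equal library totals within a tolerance of 1e-06, and RPKM, made by the authors with featureCounts exon lengths. No column was left unused.

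Counts were tested with edgeR 4.0.16 (TMM, filterByExpr, quasi-likelihood F-test) in R 4.3.3, two-sided, with Benjamini-Hochberg adjustment over all 12581 genes. Genes were called at an adjusted p under 0.01. The study also used a cutoff of 0.01, but required that both edgeR and DESeq reach it. Fold changes are A2M over PBS. Correlations used log2(RPM + 1) with a pseudocount of 1 and two-sided permutation tests (100000 permutations, exact over the 6 A2M livers). The test was checked on simulated counts. Alternatives were RLE factors, library totals, no filter, robust dispersion, DESeq2 1.42.0, an edgeR exact test with DESeq2, an adjusted p under 0.05, log2(RPKM + 1), log2 CPM, and leaving livers out.

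The 9 genes and the lists were chosen with earlier results of these data known. Named beside them are the genes past the threshold in each pathway list, otherwise the 2 with the smallest p, and the 5 genes most like each of the 2 members with the smallest p. The clock score is the mean z of log2 CPM over dusk genes minus that over dawn genes. Of the list genes, 4 Hacd genes and Adgre1 were found under older symbols. No pair of columns looked like a single library deposited again (smallest chi-square per degree of freedom 34.7 over 55 pairs), which does not show that the livers are independent. The labels give 1 treatment and number per liver, and p-values measure the spread between these livers. The marker lists of stellate, endothelial, lymphoid and pancreatic cells had no gene past the threshold in edgeR or DESeq2 and none at an unadjusted p under 0.05. Promoter windows and gene starts come from RefSeq (GRCm38.p6), gene spans from GENCODE (GRCm38).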

Additional observations from a re-analysis of the deposited data

Results flagged for a closer look

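Scd2 in PBS replicate 2 was at 9.54 RPKM, where the other PBS livers reached 2.36 RPKM at most. This liver was far from the others of its group by a Dixon test at the 95% level, the only such case among 38 groups of values examined, where chance alone gives about 1 in 20. The same liver had the highest sums of adipocyte markers (1066 RPKM) and of adrenal markers (444 RPKM), with Ucp1 and Cyp11a1 both without a read in any A2M liver. Their part in the Scd2 value was not tested.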

How the results depend on the processing

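The count of genes called among all genes was 27 and was moved most by the test: it was 284 with DESeq2, 188 with the edgeR exact test and DESeq2 together, and 154 at an adjusted p under 0.05. Leaving out each liver in turn gave 6 to 35 calls, and leaving out both PBS replicate 2 and A2M replicate 1 gave 10. It was 27 with RLE factors and with robust dispersion, 20 with library totals, 26 without the filter and 23 without PBS replicate 2 and A2M replicate 6, a setting added after seeing the data. Of the 9 desaturases and elongases, 0 were called by edgeR's quasi-likelihood test, 3 by DESeq2, 2 by the exact test and DESeq2 together and 2 at an adjusted p under 0.05, and 0 (from 0 to 0) with any liver left out. Over 171 refits of their fold changes 163 kept direction and call, 5 passed the threshold (Fads1, Fads2 and Fads3 with DESeq2, Fads2 and Fads3 with both tools) and 3 turned sign, all for Scd2: its log2 fold change ranged from -0.42 to 0.78 with single livers left out, and was 0.76 without PBS replicate 2 and A2M replicate 1 and 0.89 without PBS replicate 2 and A2M replicate 6. The cause of these changes was not tested. With single livers left out the correlation ranged from -0.78 to -0.57 for Fads1 and Fads3, from -0.88 to -0.57 for Fads2 and Fads3 and from 0.60 to 0.90 for Scd1 and Scd2. The adjusted p passed 0.05 without A2M replicate 3 or PBS replicate 3 for all 3 pairs and without PBS replicate 1 for both Fads pairs. No paired analysis was possible because the labels give each liver a number of its own, and the replicate numbers used here follow the order of deposit and pair no livers. With 6 and 5 livers and a wide spread, the interval of Scd2, Fads6 and Elovl3 is broad, and a p above the threshold does not show that the groups were alike.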
